A study of Homo sapiens with 3 samples.

Results

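Chromosomes 4, 13 and 18 are the gene-poor autosomes, and the p53 peaks listed on them in VCaP cells are described here. Their members are all peaks on these chromosomes in hg19, leaving out chromosome 4 from 9 to 10 Mb and 1 Mb at each chromosome end. That gave 4306 peaks of 35740 in all 3 lists: 2140 of 17321 with ERG shRNA, 16 of 433 with ERG shRNA 2, and 2150 of 17986 in the control. VCaP is an established human prostate cancer cell line, and per the series' design text its own p53 gene carries the mutation R248W, so all 3 groups share it. Chromatin immunoprecipitation and sequencing (ChIP-seq) was done for p53 with a first shRNA against ERG, with an ERG shRNA numbered 2, and with an shRNA against luciferase as the control. Each group was 1 library that pooled several immunoprecipitations, so there is no p-value, and intervals cover counting error only. The ERG shRNA library held 4853617 tags, ERG shRNA 2 held 52175068 and the control 9258451, so depth and hairpin cannot be told apart. The design text names the p53 antibody DO1, the label of ERG shRNA 2 names no antibody, and how far ERG was knocked down was not analysed here.

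The tumour suppressor p53 is a transcription factor that binds specific sites in DNA through its core domain, and arginine 248 is among the residues that touch DNA in the normal protein. Mutants at this residue lose much of that sequence-specific contact, and are studied for what they still bind together with other factors. ERG is a transcription factor of the ETS family, which VCaP cells express from the fusion of its gene with TMPRSS2. Gene-poor chromosomes hold much late-replicating, compact chromatin and tend to lie toward the edge of the nucleus. Chromosome 13 is acrocentric, and its short arm has no unique sequence in hg19.

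The label of gene-poor held in the RefSeq gene table, which is of another build (GRCh38.p14) and was used for counts per chromosome only. Chromosome 13 had 2.96 protein-coding genes per Mb up to its last gene, chromosome 18 had 3.36 and chromosome 4 had 4.05. These were the lowest densities of the 22 autosomes, and only chromosome Y was lower among all 24 chromosomes. No genome sequence of hg19 was used here, so peaks were neither assigned to genes nor searched for motifs.

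Over the whole length counted, chromosome 4 was among the densest of the genome in peaks and chromosome 13 among the sparsest. Over that length the 3 stood in the same order as by genes per Mb, and both measures counted the short arm of chromosome 13. Across the 22 autosomes, though, Spearman's rho between genes and peaks per Mb was -0.34 with ERG shRNA and -0.26 in the control. With ERG shRNA, chromosome 4 held 1363 peaks, or 7.24 per Mb (95% Poisson interval 6.86 to 7.64), which ranked 2 of 24 chromosomes. Chromosome 13 held 408 peaks, or 3.61 per Mb (3.26 to 3.97, rank 21), and chromosome 18 held 369, or 4.85 per Mb (4.37 to 5.37, rank 14). The order was thus 4, 18, 13, and no pair of intervals overlapped.

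In the control the same order was seen. Chromosome 4 held 1465 peaks, or 7.79 per Mb (7.39 to 8.20, rank 5), chromosome 13 held 355, or 3.14 per Mb (2.82 to 3.48, rank 23), and chromosome 18 held 330, or 4.34 per Mb (3.88 to 4.83, rank 14). Chromosome 4 was 2.01 times as dense as chromosome 13 with ERG shRNA (1.80 to 2.25) and 2.48 times in the control (2.21 to 2.80). No library listed a peak on the first 19.1 Mb of chromosome 13, its short arm and centromere. Counted only over the span that held peaks, chromosome 4 was still 1.67 times as dense as chromosome 13 with ERG shRNA and 2.07 times in the control. On that span chromosome 13 had 4.33 peaks per Mb with ERG shRNA (3.92 to 4.77), near the 4.86 of chromosome 18 (4.38 to 5.38), and these intervals overlapped. In the control they were 3.77 (3.39 to 4.18) and 4.35 (3.89 to 4.84), again overlapping.

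**Figure D1:**
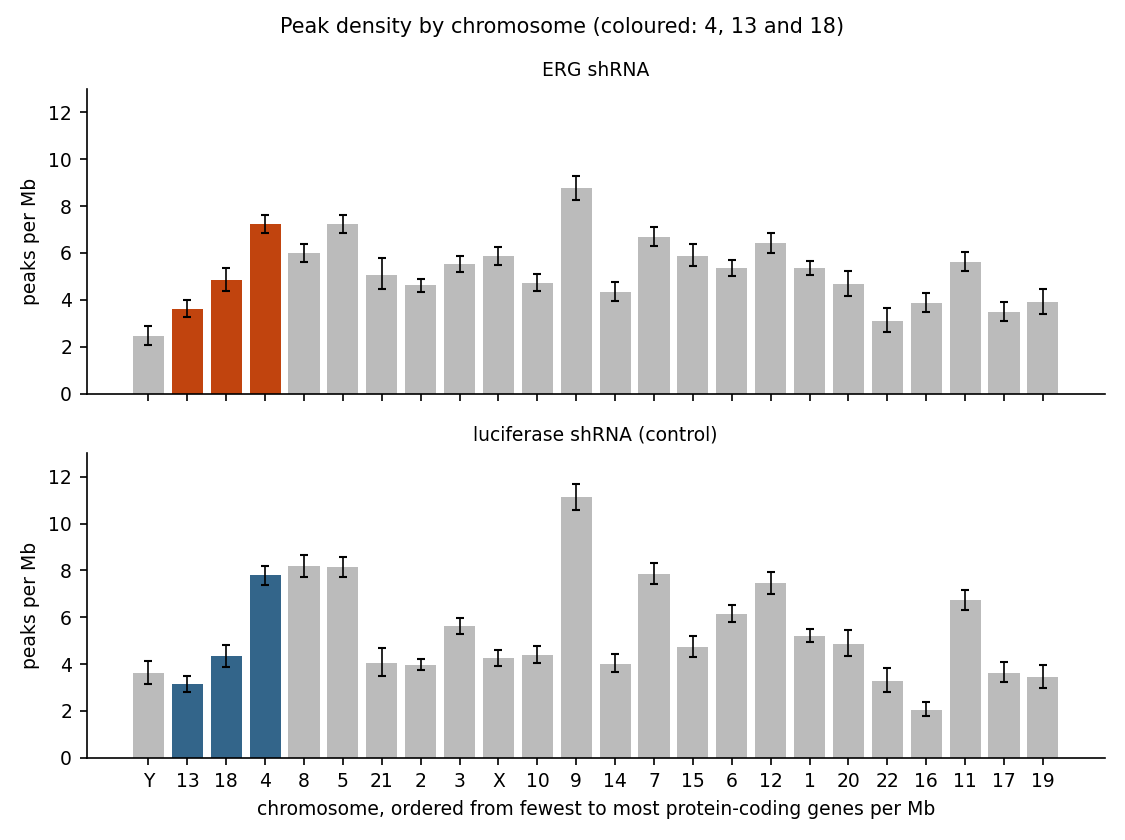
Peaks per Mb on each of the 24 chromosomes, ordered from fewest to most protein-coding genes per Mb, with ERG shRNA above and the control below; bars start at 0 and error bars are 95% Poisson intervals. Chromosomes 4, 13 and 18 are coloured: chromosome 4 stood at 7.24 and 7.79 peaks per Mb and chromosome 13 at 3.61 and 3.14.

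Taken as a group, the 3 chromosomes were close to the rest of the genome in density because high and low members offset each other. They held 5.67 peaks per Mb with ERG shRNA (5.43 to 5.92), against 5.50 on the other 21 main chromosomes (5.41 to 5.59), a ratio of 1.03 (0.985 to 1.08). In the control they held 5.70 (5.46 to 5.94) against 5.75 (5.66 to 5.84), a ratio of 0.991 (0.947 to 1.04). Without chromosome 4 the density of the other pair was 4.11 per Mb with ERG shRNA and 3.62 in the control. Against the other 21 chromosomes, chromosome 4 had a ratio of 1.32 with ERG shRNA (1.25 to 1.39) and 1.35 in the control (1.28 to 1.43). Chromosome 13 had 0.656 (0.593 to 0.723) and 0.546 (0.490 to 0.606), and chromosome 18 had 0.882 (0.793 to 0.978) and 0.754 (0.674 to 0.841). The length of chromosome 13 in its ratios and ranks includes its start without a peak. Over its span with peaks it had 4.33 per Mb with ERG shRNA (3.92 to 4.77) and 3.77 in the control (3.39 to 4.18). These were still below the 5.50 and 5.75 of the others, whose lengths were not cut to a span. Across the 22 autosomes, which share their library and input, Spearman's rho between genes per Mb and peaks per Mb was -0.34 with ERG shRNA and -0.26 in the control.

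ERG shRNA 2 listed 7 peaks on chromosome 4, 9 on chromosome 13 and 0 on chromosome 18. That is 0.0372 per Mb on chromosome 4 (0.0150 to 0.0767) and 0.0795 on chromosome 13 (0.0364 to 0.151). A count of 0 on chromosome 18 allows up to 0.0394 per Mb if 3 counts are taken as the limit, and its 95% Poisson interval ends at 0.0485. Chromosome 13, sparse in the other lists, thus held more ERG shRNA 2 peaks than chromosome 4, but their intervals overlapped.

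The order of the chromosomes was less clear among peaks well past the p cutoff. The authors' significance for each peak is a −log10 q, computed by the peak caller within each library. At a value of at least 5, 132 of the 2140 ERG shRNA peaks (6.17%) and 153 of the 2150 control peaks (7.12%) remained, against 5.99% and 6.65% of all peaks in these lists. Per Mb, chromosome 4 held 0.399 such ERG shRNA peaks (0.314 to 0.4997), chromosome 13 held 0.230 (0.150 to 0.337) and chromosome 18 held 0.407 (0.277 to 0.578). In the control these were 0.494 (0.399 to 0.606), 0.256 (0.172 to 0.368) and 0.407 (0.277 to 0.578). The ratio of 4 to 18 among them was 0.978 with ERG shRNA (0.636 to 1.54) and 1.21 in the control (0.800 to 1.89). Over all peaks it was 1.49 (1.33 to 1.68) and 1.80 (1.59 to 2.03), so these intervals overlapped. The ratio of 18 to 13 was 1.77 among strong ERG shRNA peaks (1.02 to 3.11) and 1.59 in the control (0.927 to 2.73), against 1.35 and 1.38 over all peaks. The length of chromosome 13 in these ratios includes its start without a peak. Counted over the span with peaks, the ratio over all peaks was 1.12 with ERG shRNA and 1.15 in the control. For strong peaks it was not computed over that span.

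Along the chromosomes, peak density was described in 34 windows of 10 Mb, those with at least 8.5 Mb counted and less than 0.5 Mb before the first peak. The density ran from 3.3 to 12 peaks per Mb with ERG shRNA (median 5.6) and from 1.3 to 14.2 in the control (median 5.31). The variance of the counts over the windows was 7.32 times their mean with ERG shRNA and 16.98 times in the control. These values also hold the differences between chromosomes. Within chromosomes 4, 13 and 18 they were 5.37, 2.18 and 1.60 with ERG shRNA and 11.5, 16.4 and 1.65 in the control. Peaks were therefore gathered more than a Poisson count allows, mainly on chromosome 4 and, in the control, on chromosome 13. There the control held 98 peaks at 100 to 110 Mb and from 13 to 37 in each other window, and the value without that window was not computed. The intervals given here are too narrow as a measure of the spread between regions.

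The 3 densest windows of each large list lay on the long arm of chromosome 4. With ERG shRNA they were chromosome 4 at 60 to 70 Mb with 120 peaks, at 160 to 170 Mb with 100 and at 70 to 80 Mb with 97. In the control they were chromosome 4 at 70 to 80 Mb with 142 peaks, at 60 to 70 Mb with 134 and at 80 to 90 Mb with 112. ERG shRNA 2 had its most on chromosome 13 at 100 to 110 Mb, with 7 peaks, then chromosome 4 at 60 to 70 Mb, with 4, and it had any in only 5 of the 34 windows.

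The sparsest windows lay mostly on chromosome 13. With ERG shRNA they were chromosome 13 at 20 to 30 Mb with 33 peaks, chromosome 18 at 60 to 70 Mb with 34, and chromosome 13 at 60 to 70 Mb with 35. In the control they were chromosome 13 at 60 to 70 Mb with 13 peaks, at 20 to 30 Mb with 20 and at 70 to 80 Mb with 24. The longest stretches without a peak in any list, past the start of chromosome 13, were chromosome 4, 49077800 to 52804252 (3.73 Mb), and chromosome 18, 15368854 to 18539561 (3.17 Mb), which hold the centromeres. On chromosome 13 the longest was 70788412 to 72794292 (2.01 Mb), in the long arm.

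Window densities of the 2 lists rose and fell together over the 34 windows, and within chromosomes the ranks went together most closely on chromosome 4. Pearson's r between ERG shRNA and control was 0.87 over the 34 windows, 0.80 over the 18 of chromosome 4, 0.94 over the 9 of chromosome 13 and 0.35 over the 7 of chromosome 18. By ranks, Spearman's rho was 0.87 over all, and 0.76, 0.60 and 0.47 on chromosomes 4, 13 and 18. The chromosome 13 window at 100 to 110 Mb, with 67 and 98 peaks, was the densest of its chromosome in both lists. Pearson's r was not computed without it. The windows share mappability and, per the file headers, the same input, so these are descriptions. The median local background at control peaks, relative to the genome-wide value, went with the control's density at a rho of 0.51, and with ERG shRNA that rho was 0.21. The part of the background in these densities was not tested.

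**Figure D2:**
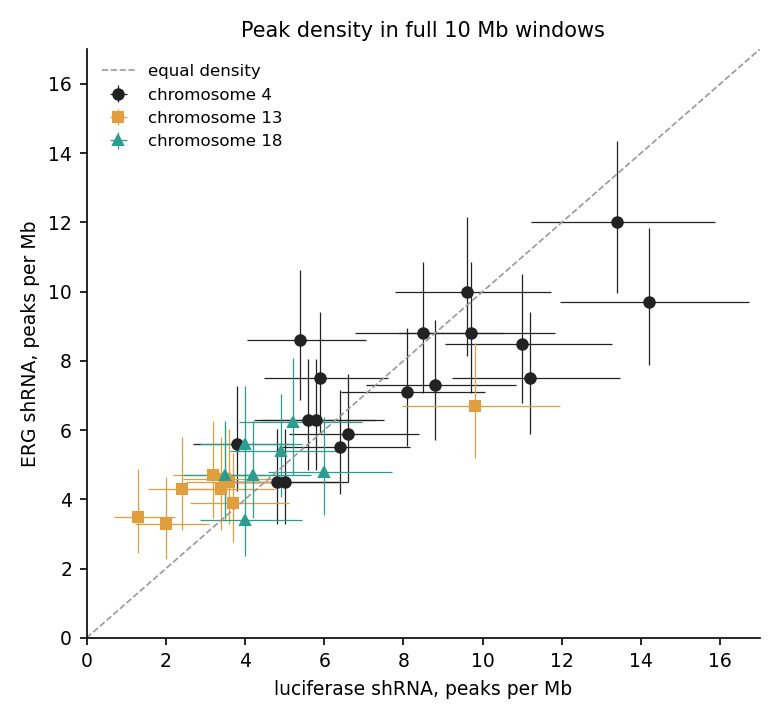
Peaks per Mb in the 34 full windows of 10 Mb, ERG shRNA on the vertical and the control on the horizontal axis; error bars are 95% Poisson intervals and the dashed line marks equal density. Chromosome 4 windows reach 12 and 14.2 peaks per Mb, and 8 of the 9 chromosome 13 windows lie above the line.

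The lists had nearly the same number of peaks on these chromosomes, with a ratio of ERG shRNA to control of 0.995 (0.937 to 1.06), but the balance varied along them. By chromosome the ratio was 0.930 on chromosome 4 (0.864 to 1.002), 1.15 on chromosome 13 (0.994 to 1.33) and 1.12 on chromosome 18 (0.961 to 1.301). ERG shRNA had more peaks than the control in 7 of 18 windows on chromosome 4, 8 of 9 on chromosome 13 and 5 of 7 on chromosome 18. The ratio's interval held 1 on each chromosome, and of the 34 windows it lay above 1 in 3 and below 1 in 3. As said above, such intervals are too narrow for the spread between regions, so some of these windows can differ by that spread alone.

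The highest ratios were on chromosome 13. They were 2.69 at 60 to 70 Mb (35 ERG shRNA and 13 control peaks, interval 1.39 to 5.55), 1.79 at 70 to 80 Mb (43 and 24, 1.06 to 3.09) and 1.65 at 20 to 30 Mb (33 and 20, 0.919 to 3.03). The lowest were 0.670 on chromosome 4 at 80 to 90 Mb (75 and 112, 0.493 to 0.905), 0.683 on chromosome 4 at 70 to 80 Mb (97 and 142, 0.522 to 0.891), and 0.684 on chromosome 13 at 100 to 110 Mb (67 and 98, 0.493 to 0.942). All 3 windows of lowest ratio were among the 3 densest of the control on their chromosome.

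The lists also differed in balance at the distal end of chromosome 13, a block chosen after its values were seen. From 100 to 114 Mb there were 69 ERG shRNA peaks (4.93 per Mb, 3.83 to 6.24), 9 ERG shRNA 2 peaks and 120 control peaks (8.57 per Mb, 7.11 to 10.2). From 20 to 100 Mb there were 331 ERG shRNA peaks (4.14 per Mb), 0 ERG shRNA 2 peaks and 231 control peaks (2.89 per Mb). The distal block was 1.19 times as dense as the rest of the arm with ERG shRNA (0.905 to 1.55), but 2.97 times in the control (2.36 to 3.72). The quotient of these ratios was 0.401 (0.285 to 0.564). All 9 chromosome 13 peaks of ERG shRNA 2 lay in this block.

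Within the block, the control's highest count was at 104 to 105 Mb, with 2 ERG shRNA, 0 ERG shRNA 2 and 20 control peaks. The control peaks there had a median background of 1.11 times the genome-wide value, and 18 of the 20 had a q of at most 0.05. Further out the background was raised: at 110 to 111 Mb its median at the peaks was 2.95 times the genome-wide value with ERG shRNA, 3.18 times with ERG shRNA 2 and 5.55 times in the control. The counts there were 1, 2 and 9 peaks. A background of about 2 times the genome-wide value or more was seen at 8 of the 69 ERG shRNA peaks, 3 of the 9 ERG shRNA 2 peaks and 30 of the 120 control peaks of the block. These multiples are not on 1 scale between the lists, since the length to which tags were extended differed. The imbalance was uneven: 105 to 106 Mb held 14 ERG shRNA and 13 control peaks, and 108 to 109 Mb held 10 and 3. The part of the background in these differences was not tested.

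A block of chromosome 4 from 60 to 90 Mb, also chosen after its values were seen, held 292 ERG shRNA, 5 ERG shRNA 2 and 388 control peaks. It was 1.37 times as dense as 100 to 190 Mb with ERG shRNA (1.19 to 1.57) and 1.90 times in the control (1.67 to 2.16), with a quotient of 0.721 (0.597 to 0.870). A background of about 2 times the genome-wide value or more was seen at 58 of the ERG shRNA peaks and 41 of the control peaks, and its part in the quotient was not tested. As above, these multiples are not on 1 scale between the lists. Inside the block, 69 to 71 Mb held 21 ERG shRNA, 0 ERG shRNA 2 and 58 control peaks. Outside it, 170 to 171 Mb held the most control peaks of any Mb here, with 13 ERG shRNA, 0 ERG shRNA 2 and 34 control peaks. Both places were chosen for their control counts.

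Most peaks on these chromosomes rested on few tags. Pileup is the authors' coverage at the summit in extended tags. Its median was 5 with ERG shRNA (quartiles 4 to 5), 7.85 with ERG shRNA 2 (7.43 to 10.9) and 6 in the control (5 to 7). The median was 5 with ERG shRNA and 6 in the control on each of the 3 chromosomes, and also on the other 21. A pileup of at most 5 was seen at 1689 of 2140 ERG shRNA peaks (78.9%, exact interval 77.1 to 80.6) and 662 of 2150 control peaks (30.8%, 28.8 to 32.8). On the other 21 chromosomes these shares were 79.0% and 28.7%, the latter just below the control's interval. Each library and its input were brought to the smaller of their totals, per the file headers, so pileups of the 3 lists are not on 1 scale.

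The upper end differed by chromosome. The highest pileups with ERG shRNA were 41 on chromosome 4, 38 on chromosome 13 and 18 on chromosome 18, and in the control 43, 42 and 22. A pileup of at least 10 was reached by 26, 10 and 13 ERG shRNA peaks on chromosomes 4, 13 and 18 (1.91%, 2.45% and 3.52%), and by 106, 51 and 32 control peaks (7.24%, 14.4% and 9.70%). In the control the chromosome 13 share (10.9 to 18.5) lay above that of chromosome 4 (5.96 to 8.68), where the background at its distal peaks was also raised. The share was 2.52% with ERG shRNA and 9.08% in the control on the other 21 chromosomes. In the control, chromosome 4 thus lay below that value and chromosome 13 above it, and with ERG shRNA it lay inside the intervals of all 3 chromosomes. For ERG shRNA 2 the median pileup of 7.85 compared with 17.1 on the other 21 chromosomes, but with 9.36 on the other autosomes, since most of its peaks lay on chromosome X.

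**Figure D3:**
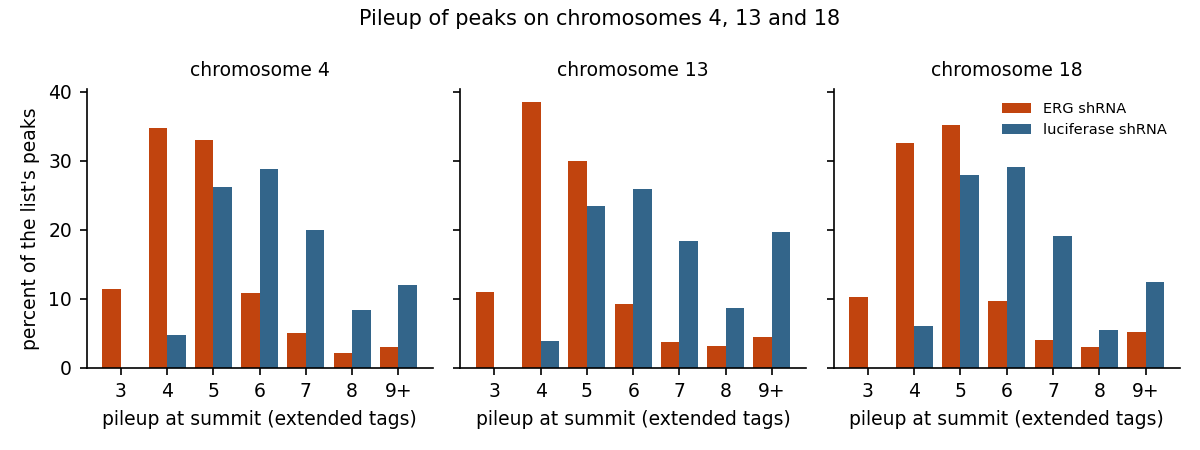
Share of each list's peaks at each pileup, in extended tags at the summit, on chromosomes 4, 13 and 18, with ERG shRNA left of the control (luciferase shRNA) at each level; 9+ means 9 or more. ERG shRNA peaks centre on 4 and 5 tags and control peaks on 5 and 6 on all 3 chromosomes, so the lists differ more than the chromosomes do.

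Widths followed the length to which tags were extended, which was 115 bp with ERG shRNA, 154 bp with ERG shRNA 2 and 148 bp in the control. The median width was 115 bp with ERG shRNA (upper quartile 143), 186 bp with ERG shRNA 2 (160.5 to 218) and 159 bp in the control (148 to 212). Peaks at exactly the smallest width made up 55.3% of ERG shRNA peaks (53.1 to 57.4), 1 of the 16 ERG shRNA 2 peaks and 42.4% of control peaks (40.3 to 44.5). On the other 21 chromosomes these shares were 55.0%, 5.43% and 40.1%, and in the control the difference was 2.33 points (0.111 to 4.56). The widest peaks were 574 bp with ERG shRNA and 758 bp in the control, both on chromosome 4. Together the peaks covered 295 kb with ERG shRNA, 3.25 kb with ERG shRNA 2 and 408 kb in the control.

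A q of at most 0.05 was reached by 1572 ERG shRNA peaks (73.5%), 2 ERG shRNA 2 peaks (12.5%) and 1722 control peaks (80.1%). Over all peaks the shares were 72.6%, 8.31% and 79.8%, so the members stood close to their lists. The median fold enrichment, the ratio of pileup to local background with 1 added to each, was 4.32 with ERG shRNA, 4.01 with ERG shRNA 2 and 4.37 in the control.

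About 1 peak in 7 was found in both of the large lists, as in the rest of the genome. Of the 2140 ERG shRNA peaks, 300 (14.0%, 12.6 to 15.6) shared at least 1 bp with a control peak, against 14.0% of all ERG shRNA peaks. Of the 2150 control peaks, 296 (13.8%, 12.3 to 15.3) shared at least 1 bp with an ERG shRNA peak, against 13.5% of all control peaks. The difference from the other 21 chromosomes was -0.00815 points (-1.53 to 1.62) for ERG shRNA peaks and 0.351 points (-1.14 to 1.96) for control peaks. The overlapped share of ERG shRNA peaks was 13.7% on chromosome 4, 14.5% on chromosome 13 and 14.6% on chromosome 18, and that of control peaks was 12.6%, 16.3% and 16.1%. All of these intervals overlapped.

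Shared sites kept the order of density. They stood at 0.994 per Mb on chromosome 4 (0.857 to 1.15), 0.521 on chromosome 13 (0.397 to 0.672) and 0.710 on chromosome 18 (0.533 to 0.926), counted in the ERG shRNA list. Only the intervals of chromosomes 4 and 13 lay apart, and the length counted for chromosome 13 includes its start without a peak. By windows, the share of control peaks that were overlapped was lowest on chromosome 13 at 100 to 110 Mb, with 4 of 98, and highest on chromosome 13 at 50 to 60 Mb, with 13 of 32. A further 182 ERG shRNA peaks (8.5%, 7.36 to 9.77) had a control peak within 1000 bp but without overlap, against 9.58% on the other 21 chromosomes.

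The overlap depended on pileup. Among ERG shRNA peaks it was 46 of 988 (4.66%, 3.43 to 6.16) at 4 tags or fewer, 83 of 701 (11.8%) at 5, 53 of 221 (23.98%) at 6 and 75 of 181 (41.4%) at 7 to 9. It was 31 of 37 (83.8%, 68.0 to 93.8) at 10 to 14 and 12 of 12 at 15 or more. Among control peaks it was 3 of 103 (2.91%) at 4 tags, 22 of 559 (3.94%) at 5, 33 of 610 (5.41%) at 6 and 122 of 689 (17.7%) at 7 to 9. It was 85 of 146 (58.2%, 49.8 to 66.3) at 10 to 14 and 31 of 43 (72.1%, 56.3 to 84.7) at 15 or more. A site with 10 or more tags in either list was thus mostly found in the other, and a site with few tags mostly was not. At the same pileup, the other 21 chromosomes gave 73.9% for ERG shRNA peaks at 10 to 14 tags, inside the interval above, and 47.1% for control peaks, below its interval. At 4 tags or fewer they gave 6.63% for ERG shRNA peaks, above its interval, and in 10 of the 12 bins of both lists their share lay inside the interval.

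**Figure D4:**
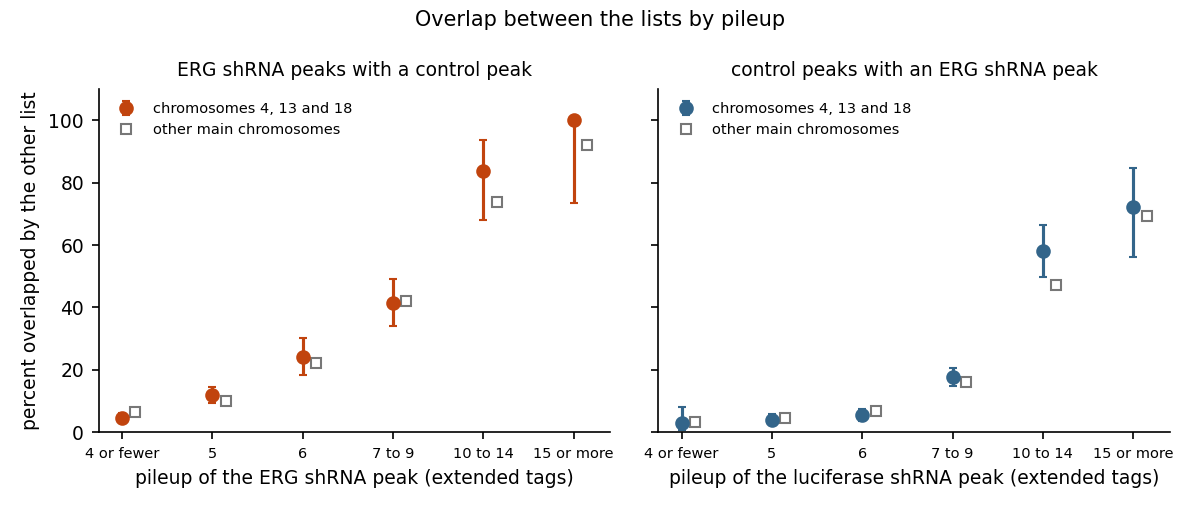
Percent of ERG shRNA peaks overlapped by a control peak (left) and of control peaks overlapped by an ERG shRNA peak (right), by pileup in extended tags, on chromosomes 4, 13 and 18 (filled, with exact 95% intervals) and on the other 21 main chromosomes (open squares). On the 3 chromosomes the share goes to 12 of 12 and to 31 of 43 at 15 tags or more.

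At the 296 shared sites, counted once per control peak with its strongest partner, the median distance between summits was 31 bp (quartiles 12 to 58.5). The median fold was 5.23 with ERG shRNA and 5.47 in the control, and ERG shRNA had the higher fold at 139 of the 296. The genome-wide background was 0.207 tags with ERG shRNA and 0.5075 in the control, so with 1 added the folds are not on 1 scale. Across these sites, which share the input, Pearson's r of the log2 fold was 0.60 and Spearman's rho of the fold was 0.45. A fold of at least 10 was reached at 14 shared sites with ERG shRNA and at 17 in the control, and at 7 in both. Sites above that fold in 1 list were thus often below it in the other, though a peak was listed in both.

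**Figure D5:**
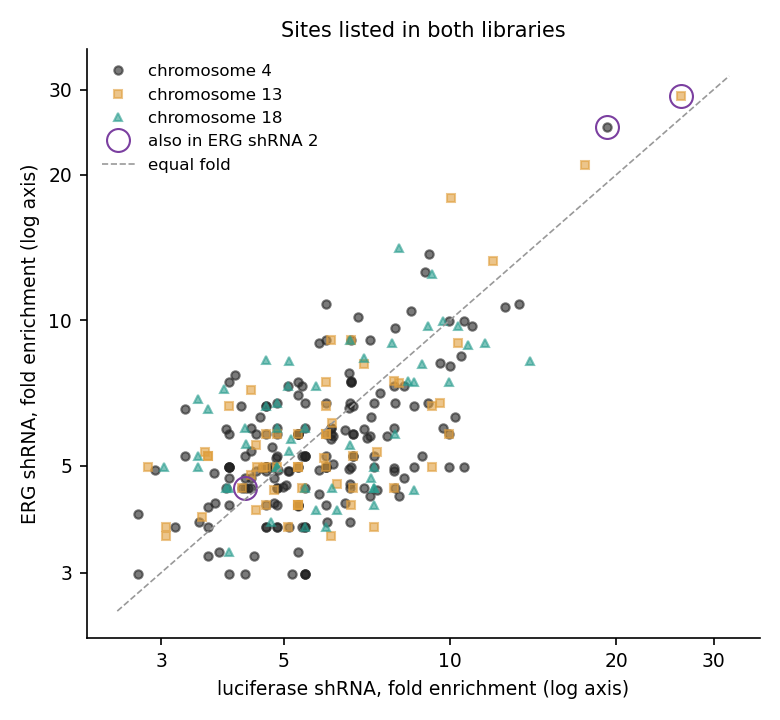
Fold enrichment at the 296 shared sites on chromosomes 4, 13 and 18, with ERG shRNA on the vertical and the control on the horizontal axis, both on log scales; the dashed line marks equal fold. The 3 ringed sites were also listed with ERG shRNA 2, and 2 of them are the highest of all, with folds of 29.1 and 26.1 on chromosome 13 and of 25.1 and 19.2 on chromosome 4.

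Just 3 sites were listed in all 3 libraries. At chromosome 13, 102294089 to 102294268 in the ERG shRNA list, the pileup was 38 with ERG shRNA, 11.6 with ERG shRNA 2 and 42 in the control, and the fold 29.1, 6.28 and 26.1. At chromosome 4, 139803134 to 139803334, the pileup was 41, 15.96 and 43, and the fold 25.1, 5.65 and 19.2. The background at this site was 3.27, 2.44 and 2.54 times the genome-wide value in the same order, and at the first 1.63, 1.22 and 1.27 times. At both sites the multiple was lower where tags were extended further (115, 154 and 148 bp), so multiples of the lists are not on 1 scale. By fold both sites were the highest peaks of the 3 chromosomes in each list, and the only ERG shRNA 2 peaks here with a q of at most 0.05. The third site, at chromosome 4, 73343281 to 73343468 in the ERG shRNA 2 list, was weak throughout, with pileups of 5, 9.63 and 6 and folds of 4.48, 5.27 and 4.26.

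The other leading sites of chromosome 13 were shared by both large lists. The one at 52226253 to 52226462 had a pileup of 27 with ERG shRNA and 30 in the control, and folds of 20.9 and 17.6. The one at 48656832 to 48657005 had pileups of 29 and 22 and folds of 17.9 and 10.05, with a background of 3.27 and 2.54 times the genome-wide value. The one at 52087624 to 52087752 had pileups of 15 and 17 and folds of 13.3 and 11.9. The fifth of ERG shRNA, at 79503722 to 79503896, had folds of 9.12 and 6.08, and the control's remaining one, at 21749455 to 21749682, had folds of 8.97 and 10.3. Of the 5 highest peaks of each list on chromosome 13, 4 were the same sites.

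Chromosome 4 and chromosome 18 shared fewer of their 5 highest sites. On chromosome 4 the site at 139803134 to 139803334, given above, led in both large lists, and on chromosome 18 the leading sites differed. On chromosome 4, the site at 162448712 to 162448864 had a pileup of 18 with ERG shRNA and 20 in the control, and folds of 13.7 and 9.17. The site at 93856560 to 93856705 had pileups of 14 and 25 and folds of 10.8 and 13.3, and the one at 64133264 to 64133463 had 15 and 26 and folds of 10.6 and 12.6. The one at 116095113 to 116095436 had 15 and 14 and folds of 12.6 and 8.99. On chromosome 18, the site at 40295862 to 40296017 led with ERG shRNA, with pileups of 18 and 14 and folds of 14.1 and 8.07. The site at 2482037 to 2482227 led in the control, with pileups of 10 and 22 and folds of 8.22 and 14.0. Further sites there were among the 5 highest of 1 list only. With ERG shRNA these were 12135733 to 12135933 (folds 12.4 and 9.29), 3547101 to 3547252 (9.94 and 9.73) and 24863960 to 24864097 (9.72 and 9.12). In the control they were 25997939 to 25998118 (8.97 and 11.6), 5972798 to 5973013 (8.89 and 10.8) and 2250284 to 2250507 (7.46 and 9.95). The site among the 5 highest of both was 26130429 to 26130577 (9.72 and 10.3). All 5 highest peaks of each list on chromosome 18 had a counterpart in the other list, against 4 of 5 for ERG shRNA and 3 of 5 for the control on chromosome 4. Of the 5 highest peaks of each list, 2 were the same sites on chromosome 4 and 1 on chromosome 18. Neither leading site of chromosome 18 was listed with ERG shRNA 2.

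A few strong peaks had no counterpart. With ERG shRNA, the highest without a control overlap was at chromosome 4, 143836063 to 143836214, with a pileup of 12, a fold of 10.8 and the nearest control peak 189 kb away. The next were at chromosome 4, 61498315 to 61498472 (fold 9.94), and chromosome 18, 1124058 to 1124199 (8.89). In the control, the highest without an ERG shRNA overlap was at chromosome 4, 36459714 to 36459909, with a pileup of 20, a fold of 12.8 and the nearest ERG shRNA peak 63.5 kb away. The second, at chromosome 4, 127984511 to 127984708 (fold 11.4), was a near miss: an ERG shRNA peak with a fold of 4.18 ended 51 bp before it. In each list, peaks without a counterpart reached a fold of 10 rarely: 1 of 1840 with ERG shRNA and 2 of 1854 in the control. Among those with one it was 14 of 300 and 17 of 296. Such a fold was rare in general, reached by 0.701% of all ERG shRNA peaks and 0.884% of all control peaks here. The shares on the other main chromosomes were 0.824% and 0.762%. The split by counterpart was not computed there, so whether it differs from these chromosomes was not tested.

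Of the 16 ERG shRNA 2 peaks, 4 overlapped an ERG shRNA peak (25%, 7.27 to 52.4), against 12% of all ERG shRNA 2 peaks. Likewise 4 overlapped a control peak (25%, 7.27 to 52.4), against 11.8% of all. An ERG shRNA 2 peak lay over 4 of 2140 ERG shRNA peaks (0.187%, 0.0510 to 0.478) and 4 of 2150 control peaks (0.186%, 0.0507 to 0.476), against 0.306% and 0.284% of all. With 16 peaks, these shares could not be told from those of the whole list.

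The other 13 ERG shRNA 2 peaks had no q of at most 0.05 and partly lay together. On chromosome 13, 4 of them lay within 2.30 kb at 109157644 to 109159941, with pileups of 6.61 to 7.98 and folds of 3.63 to 4.39. The nearest ERG shRNA peak was 2.68 kb and the nearest control peak 5.19 kb from the group. Of the other 4 distal ones, 108648259 to 108648451 (fold 3.65) and 109703183 to 109703385 (3.19) overlapped neither list. The one at 110580250 to 110580463 (4.13) overlapped an ERG shRNA peak, and the one at 110581805 to 110582082 (3.06) a control peak. The last 3 of these had a background of 3.60, 2.90 and 3.46 times the genome-wide value. On chromosome 4, the 5 with no overlap lay from 47531009 to 67610670, with pileups of 5.78 to 7.98 and folds of 3.41 to 4.45.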

How the data were processed

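ChIP-seq peaks for p53 were analysed in 3 VCaP libraries, 1 per group. The submitters' processing notes name hg19, bedtools, Bowtie2, MACS2 and Picard 2.14.0, with no role given. Peaks were called per library with MACS 2.2.7.1 against an input of 14360465 tags, at a p cutoff of 0.001, per the file headers. The pileup deposited for each peak is a coverage signal, the deposited significance values are the −log10 of p and of q, and the deposited fold enrichment is a ratio. These scores are the authors' and describe peaks within a list. The significance columns had lost their names and were read in the usual MACS order. A p-value or q-value was not computed anew.

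Peaks touching a left-out region were dropped. Densities used hg19 chromosome lengths, entered by hand. Intervals at 95% are Poisson for densities and their ratios, Clopper-Pearson for shares, Newcombe for differences of shares, and a log-normal approximation for quotients of ratios. The background at a peak was recovered from its pileup and fold, and its lowest value in a list was taken as genome-wide. Overlap needed 1 bp. The overlap rules misassigned 0 of 2150 simulated peaks, and the counts equalled those of bedtools 2.31.1. Versions were scipy 1.17.1, pandas 2.3.3, numpy 2.4.6, matplotlib 3.10.9 and Python 3.11.15.

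Named sites were the 5 of highest fold per chromosome in the 2 large lists, the highest without an overlap, those in all 3 lists and all 16 ERG shRNA 2 peaks, of which the leading ones are given. Named windows were the 3 densest, the 3 sparsest and those of highest and lowest ratio. The chromosomes, rules and alternatives were chosen with earlier results of these data known. Positions are the files' own, in hg19, counted from 1.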

Additional observations from a re-analysis of the deposited data

Results flagged for a closer look

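The share of a list that lay on chromosome 18 was above the control's with ERG shRNA and below it with ERG shRNA 2. The chromosome held 2.13% of ERG shRNA peaks, 0% of ERG shRNA 2 peaks and 1.83% of control peaks, differences from the control of 0.296 and -1.83 percentage points. With 433 peaks in the ERG shRNA 2 list, a count of 0 allows a share of up to 0.693% if 3 counts are taken as the limit, and its exact 95% interval ends at 0.848%. The difference between the hairpins was not tested, since each had 1 library, and most ERG shRNA 2 peaks lay on chromosome X.

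Among the regions left out of the counts above, chromosome 4 from 9 to 10 Mb held 32 ERG shRNA peaks, 0 ERG shRNA 2 peaks and 5 control peaks. In no other left-out region of these chromosomes did the interval of the ratio of an ERG shRNA list to the control lie above 1. No group had the 4 libraries needed to look for a library far from the others.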

How the results depend on the processing

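Of 93 alternatives, 60 left a value inside its counting interval and 33 moved it. The moved values are given here, and none reversed, since these values have no direction. Densities are given as ERG shRNA, then control, in peaks per Mb. Over the span with peaks they were 5.98 and 6.01. A −log10 q of 1.3 or more gave 4.17 and 4.56, and of 5 or more 0.350 and 0.405. A fold of 5 or more gave 1.02 and 1.48. Without chromosome 4 they were 4.11 and 3.62, and without chromosome 13 they were 6.55 and 6.79. The control moved alone without chromosome 18, to 6.04, and without dense 1 Mb windows, to 5.31. ERG shRNA 2 density was 0.00530 at −log10 q of at least 1.3, 0 at 5 or more and 0.00795 at a fold of at least 5. At 1.3 or more its median pileup was 13.8, from 2 peaks. With windows shifted by 5 Mb the densest control window held 17.4 peaks per Mb.

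Overlapped shares of ERG shRNA peaks, then of control peaks, were 10.6% and 10.6% at a reciprocal overlap of 50%, 22.5% and 21.8% within 1000 bp, and 12.3% and 12.3% with summits within 100 bp. With the first list at −log10 q of at least 5 they were 66.7% and 71.2%, and with both lists at that level 43.9% and 36.6%. With both at 1.3 or more, ERG shRNA peaks reached 16.3% and both shares of ERG shRNA 2 were 100%, of 2 peaks. Without chromosome 4 the control share was 16.2%. Fewer peaks pass the stricter levels by construction. The other causes were not tested. ERG shRNA 2 had no peak at −log10 q of at least 5, so its shares there gave no value. No paired analysis was possible because the groups hold 1 library each. Depth differed between libraries, and peak lists cannot be thinned to a common depth.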

Other observations

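Some peaks on these chromosomes lay close to others of their list, and the difference from the other chromosomes was not tested. With ERG shRNA, 654 of 2140 peaks (30.6%) had another peak of their list within 10 kb, as had 6 of the 16 ERG shRNA 2 peaks and 751 of 2150 control peaks (34.9%). On the other 21 chromosomes the shares were 35.1% with ERG shRNA, 74.7% with ERG shRNA 2 and 38.2% in the control. Groups of 4 or more such peaks numbered 14 with ERG shRNA, 1 with ERG shRNA 2 and 22 in the control. The largest was in the control, with 9 peaks at chromosome 4, 69523417 to 69550724, of pileups 6 to 10. The largest with ERG shRNA held 5 peaks, as at chromosome 18, 10572925 to 10575804, with folds of 3.74 to 8.22. On chromosome 18, 24860490 to 24864571, the control listed 5 peaks within 4.08 kb with folds of 3.93 to 9.12. The ERG shRNA peak at 24863960 to 24864097, with a fold of 9.72, lay inside this group. Another ERG shRNA peak, with a fold of 5.68, overlapped the group's peak at 24860490 to 24860665.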
